A study of Avicennia officinalis with 4 samples.

Results

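Unigene74595_All (Ug74595) is an assembled root transcript of the mangrove tree Avicennia officinalis, named cationic peroxidase 1 by its similarity to a known gene. It is 1 of 168308 unigenes, the transcript sequences that the authors assembled without a genome from their reads, and is 1228 bp long. The unigene was chosen by its higher level in salt in these same libraries, since the study listed it among its salt-raised key genes. Its salt-over-control values are therefore given as a description, without a test. The libraries came from roots of 2-month-old greenhouse seedlings that had been raised without NaCl and moved to sand with half-strength Hoagland's solution. The salt-treated plants then received 500 mM NaCl in that solution for 24 h, and the control plants received no salt. Each group had 2 libraries, biological replicates 1 and 2, and each library pooled the roots of 3 plants. The labels do not say what a replicate number shares between the groups.

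Class III peroxidases are secreted haem enzymes of plants, encoded by large gene families. They use hydrogen peroxide to oxidise phenolic compounds, and in roots they are known for coupling lignin and suberin precursors in cell walls, including the barriers around the vascular tissue. They can also consume or produce reactive oxygen species, and peroxidase activity is a common readout of oxidative stress under salinity. The name cationic peroxidase 1 comes from a basic peroxidase of peanut, and Ug74595 carries it from sequence similarity, since the methods of the study name unigenes after their most similar database proteins. The function of the mangrove protein itself was not measured here. The sources used here do not say how reads were shared between near-identical members of this family, so the values may include reads of close relatives.

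The libraries held 17.1 to 22.4 M reads counted on unigenes, where M stands for 1e+06. Libraries with the same replicate number resembled each other more than libraries of the same group. The 62900 unigenes with enough reads in at least 2 libraries were tested. Over these, Pearson's r of log2 levels was 0.95 and 0.91 between salt-treated and control libraries of replicates 1 and 2. It was 0.79 and 0.75 between the replicates of the salt-treated and control groups. One transcript, Unigene12915_All, took 7.40% of the reads of salt-treated replicate 2 and 10.8% of those of control replicate 2, with 3.27% in salt-treated replicate 1 and 3.21% in control replicate 1. The deposited table has no gene names, so root markers could not be checked. The marker of photosynthetic tissue among the study's key salt genes, a chlorophyll a-b binding protein (Ug86979), had 18 and 17 reads in salt-treated roots, against 98 and 62 in control roots. It moved with the treatment, and its part in the values of Ug74595 was not tested.

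Ug74595 was higher in both salt-treated libraries than in both control libraries. Its reads numbered 9703 and 9827 in salt-treated replicates 1 and 2, against 2890 and 1893 in control replicates 1 and 2. As RPKM, which divides the reads by the length of the unigene and the total of the library, these were 363 and 467 in the salt-treated roots and 105 and 86.6 in the control roots. The mean was 415 ± 73.8 RPKM in salt-treated roots and 95.7 ± 12.9 RPKM in control roots (SD, n = 2 libraries each), a ratio of 4.34. The groups did not overlap, and the lower salt-treated library lay 3.46-fold above the higher control library. In bulk roots, more cells with the transcript and more transcript per cell cannot be told apart.

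**Figure D1:**
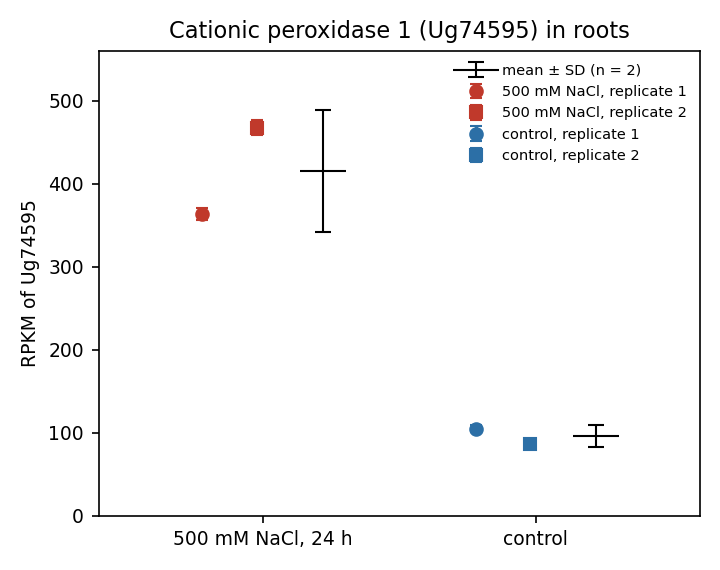
RPKM of Ug74595 in each library, with 95% Poisson intervals for counting error (points; the intervals are about as wide as the symbols) and the mean ± SD of each group beside them. The salt-treated libraries lie at 363 and 467 RPKM, and the control libraries at 105 and 86.6 RPKM.

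The number of reads behind these values left little counting error. The 95% Poisson interval of the RPKM was 356 to 370 in salt-treated replicate 1 and 458 to 477 in salt-treated replicate 2, and 101 to 109 in control replicate 1 and 82.7 to 90.6 in control replicate 2. These intervals cover counting error only. No interval overlapped another, so replicates of a group also differed by more than counting error. Of all counted reads, Ug74595 took 0.0446% (95% Wilson interval 0.0437 to 0.0455%) and 0.0574% (0.0563 to 0.0585%) in salt-treated replicates 1 and 2, against 0.0129% (0.0124 to 0.0134%) and 0.0106% (0.0102 to 0.0111%) in control replicates 1 and 2.

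Salt-treated and control libraries were then paired by their replicate number. Within replicate 1 the level was 3.30-fold higher in salt (95% exact binomial interval 3.16 to 3.44 for counting error), and within replicate 2 it was 5.37-fold higher (5.11 to 5.64). These ratios use CPM, the reads scaled to the size of the library, with TMM factors, a correction for libraries in which a few transcripts take many reads. On the deposited RPKM, which has no such correction, the ratios were 3.46 and 5.40. The ratio in replicate 2 was 1.63 times that in replicate 1, which is outside counting error, while the direction was the same in both. The log2 fold change fitted over all 4 libraries by edgeR was 2.09 (standard error 0.41). With each library left out in turn it stayed between 1.85 and 2.27.

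The same fit called 0% of the tested unigenes between salt-treated and control roots. In edgeR, 0 of 62900 unigenes reached an adjusted p of 0.05 (quasi-likelihood test, Benjamini-Hochberg). An unadjusted p under 0.05 was found for 129 unigenes, 60 of them higher in salt. That is fewer than chance alone gives at this threshold, so the 0% is no measure of how many unigenes changed. DESeq2 called 1 unigene as higher and 1 as lower, and limma on log2 RPKM called 0. These fits left out the replicate number. In edgeR the common biological coefficient of variation was 0.671 without the replicate number and 0.342 with it. With the replicate number in the model edgeR again called 0, while DESeq2 called 14 as higher and 153 as lower. Nothing is read from these counts about Ug74595, as the contrast chose it.

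By abundance, Ug74595 was among the most highly expressed root transcripts in every library. Ranked by RPKM, it was number 237 of 101378 unigenes with reads in salt-treated replicate 1 and number 153 of 97706 in salt-treated replicate 2. In the control it was number 985 of 103772 in replicate 1 and number 1151 of 98488 in replicate 2. It was thus within the top 0.234% and 0.157% in the salt-treated libraries and the top 0.949% and 1.17% in the control libraries. By the mean of all 4 libraries it was number 337 of the 121929 unigenes with reads, and number 379 when unigenes were ranked by reads without dividing by length. Its RPKM was 152 and 214 times the median of the tested unigenes in salt-treated replicates 1 and 2, and 45.5 and 38.0 times this median in control replicates 1 and 2. Its length was not unusual, as 38.8% of all unigenes were longer.

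**Figure D2:**
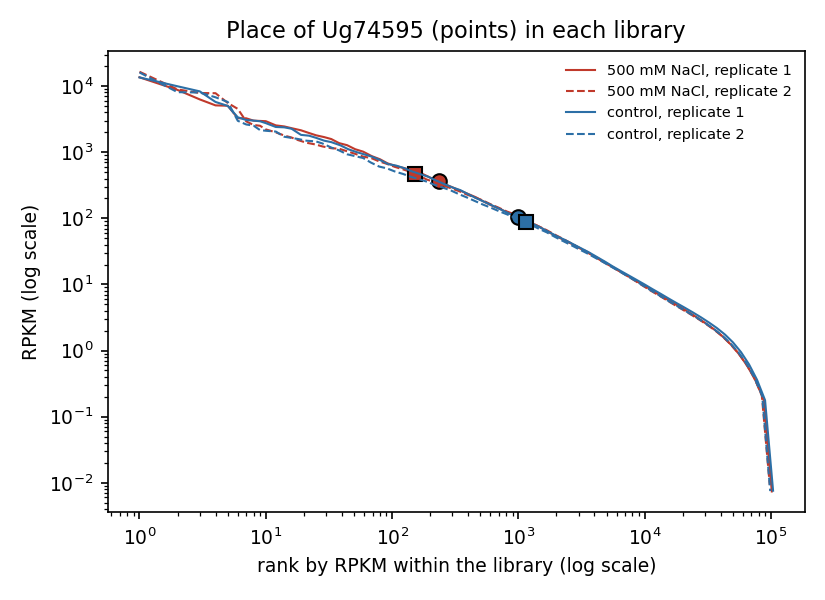
RPKM against rank in each library, both on log scales (lines), with Ug74595 marked by a circle for replicate 1 and a square for replicate 2. The curves of the libraries lie close together, and Ug74595 sits at ranks 237 and 153 in the salt-treated libraries and at ranks 985 and 1151 in the control libraries.

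In absolute terms, Ug74595 was 258 RPKM higher in salt within replicate 1 and 381 RPKM higher within replicate 2. By this difference it was number 19 of all unigenes in replicate 1 and number 44 in replicate 2. Ranked by the smaller of both differences, it was number 11 of all unigenes.

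Its change was then set beside that of unigenes of similar abundance, taken as the 500 next below and up to 500 next above by the mean log2 level of all 4 libraries. Only 479 unigenes lay above it, so 979 were compared, with a mean of 138 to 62444 CPM against 312 CPM for Ug74595. For this comparison 0.1 CPM was added before the log2, and the log2 ratios of Ug74595 were 1.72 in replicate 1 and 2.42 in replicate 2. No unigene of the 979 had a larger ratio in replicate 1, where the highest was 1.55. In replicate 2, 21 had a larger ratio. None of the 979 had a larger value for the smaller of both ratios, and the highest was 1.47, a 2.77-fold difference. By the mean of both ratios, 2.07 for Ug74595, 9 unigenes (0.919%) lay above it. This share depended on the unigenes compared, and was 0.5% among the 200 nearest, 0.5% among 1000 of similar level in the control, and 0.470% among a wider 2979. In replicate 1, 3 of these 2979 had a larger ratio than Ug74595, and 0 had a larger value for the smaller of both ratios. Of the 979, all 9 with a higher mean had their larger ratio in replicate 2. Their ratios were 2.72 to 6.08 in replicate 2 and -0.64 to 1.47 in replicate 1. The median of the mean ratio over the 979 was 0.06, with 5% below -0.57 and 5% above 0.64. A ratio of 1 or more in both replicates was found for 5 of the 979, and a ratio of -1 or less in both for 1.

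**Figure D3:**
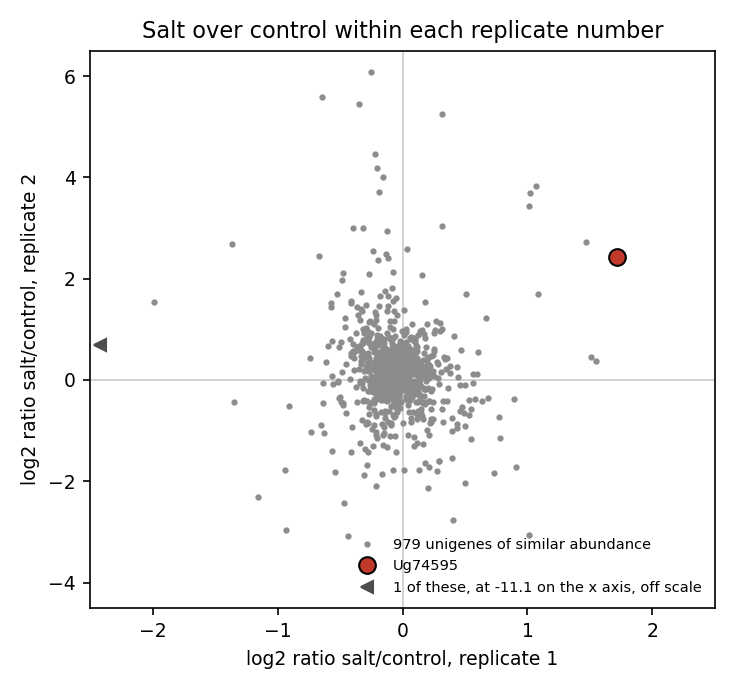
Log2 ratio of salt-treated over control TMM-scaled CPM (0.1 CPM added) in replicate 1 (x) and replicate 2 (y) for Ug74595 (red) and 979 unigenes of similar abundance (grey); 1 of them, at -11.1 on the x axis, is drawn as a triangle at the edge. Ug74595 lies farthest to the right, at 1.72 and 2.42, while unigenes with a higher ratio in replicate 2 lie to its left.

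The spread of the grey points was wider in replicate 2 than in replicate 1. The median size of the log2 ratio was 0.37 in replicate 2 and 0.13 in replicate 1 over the 979 unigenes. Unigenes with a larger change than Ug74595 in both replicates existed only at lower abundance. Among all 62900 tested unigenes, 30 had a larger value for the smaller of both ratios. Not all of them exceeded Ug74595 in replicate 2, where their lowest ratio was 1.74. These 30 had 27 to 1634 reads in all 4 libraries together, and Ug74595 had 24313. By the mean ratio, 122 of the tested unigenes lay above it.

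The difference between replicate numbers, which did not enter the choice of the unigene, was tested. Ug74595 was 1.38-fold higher in salt-treated replicate 2 than in salt-treated replicate 1 (95% exact binomial interval 1.34 to 1.42), and in the control the level in replicate 2 was 0.847 times that in replicate 1 (0.799 to 0.898). The direction thus differed between the groups. With condition in the model, the log2 difference of replicate 2 over replicate 1 was 0.11 (standard error 0.31, 95% interval -0.61 to 0.84, adjusted p = 0.834 in edgeR), and the unigene was not called. This term averages the salt-treated and control differences, so their opposite directions partly cancel in it. It therefore cannot show that the replicates of a group were alike. The same test called 6648 of the 62900 unigenes, or 10.6%, with 3631 higher and 3017 lower in replicate 2. Of the 979 unigenes of similar abundance it called 126. The size of the log2 difference between the salt-treated replicates, 0.47, was close to the median of 0.49 in these unigenes, and 464 of them had a smaller one. Between the control replicates the size was 0.24 against a median of 0.54, and 227 had a smaller one. The biological coefficient of variation of Ug74595 in the fit without replicate number was 0.452, and its median over the 979 was 0.473.

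Ug74595 belongs to a list of 30 unigenes of defence and stress, 15 put down as raised and 15 as lowered by salt. The study drew the list from these libraries, so its directions are not independent evidence. Among the 15 listed as raised, the groups separated with salt higher for 7, Ug74595 included, which means that no salt-treated library was at or below a control library. This was the case for 8.12% of all tested unigenes. Among the 15 listed as lowered, they separated with salt lower for 4, against 8.07% of all tested unigenes. edgeR called 0 of the 30, but it called 0 of all 62900 tested unigenes, so this count says nothing about the list. The median of the mean log2 ratio was 1.61 over the raised and -1.87 over the lowered unigenes, and 0.00 over all tested unigenes. Of the 30, 17 had enough reads in at least 2 libraries to be tested, 7 listed as raised and 10 as lowered. Only these are like the unigenes behind the 8.12% and 8.07%. Among them the groups separated with salt higher for 4 of the 7 raised. They separated with salt lower for 1 of the 10 lowered, which is near the share over all tested unigenes.

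Ug74595 was by far the most abundant member of this list. It had 24313 reads in all 4 libraries, and the median of the list was 101. The second was a small proline-rich protein (Ug22930), listed as lowered. It had 39 and 487 reads in salt-treated roots, against 49 and 5701 in control roots, given for replicates 1 and 2, so its reads were almost entirely in replicate 2. An HSP90 chaperone (Ug77182), next by reads, had 74 and 0 in salt-treated roots, against 999 and 0 in control roots. Neither shared the even pattern of Ug74595, which had at least 1893 reads in each library.

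Larger mean log2 ratios than that of Ug74595 were found for 3 members of the list. Cytochrome P450 94A1 (Ug124338), named after an enzyme that hydroxylates fatty acids, had 84 and 60 reads in salt-treated roots, against 6 and 6 in control roots, with log2 ratios of 3.36 and 3.04. A small heat shock protein (Ug9510, class I) had 9 and 89 reads in salt-treated roots, against 2 and 8 in control roots. Adenosyl homocysteinase (Ug150526), an enzyme of the methyl cycle, had 4 and 110 reads in salt-treated roots, against 2 and 6 in control roots. In Ug9510 and Ug150526 the groups overlapped, with salt-treated replicate 1 lying between the control libraries, and in Ug124338 they did not. By the smaller of both ratios Ug74595 was number 3 of the 30.

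**Figure D4:**
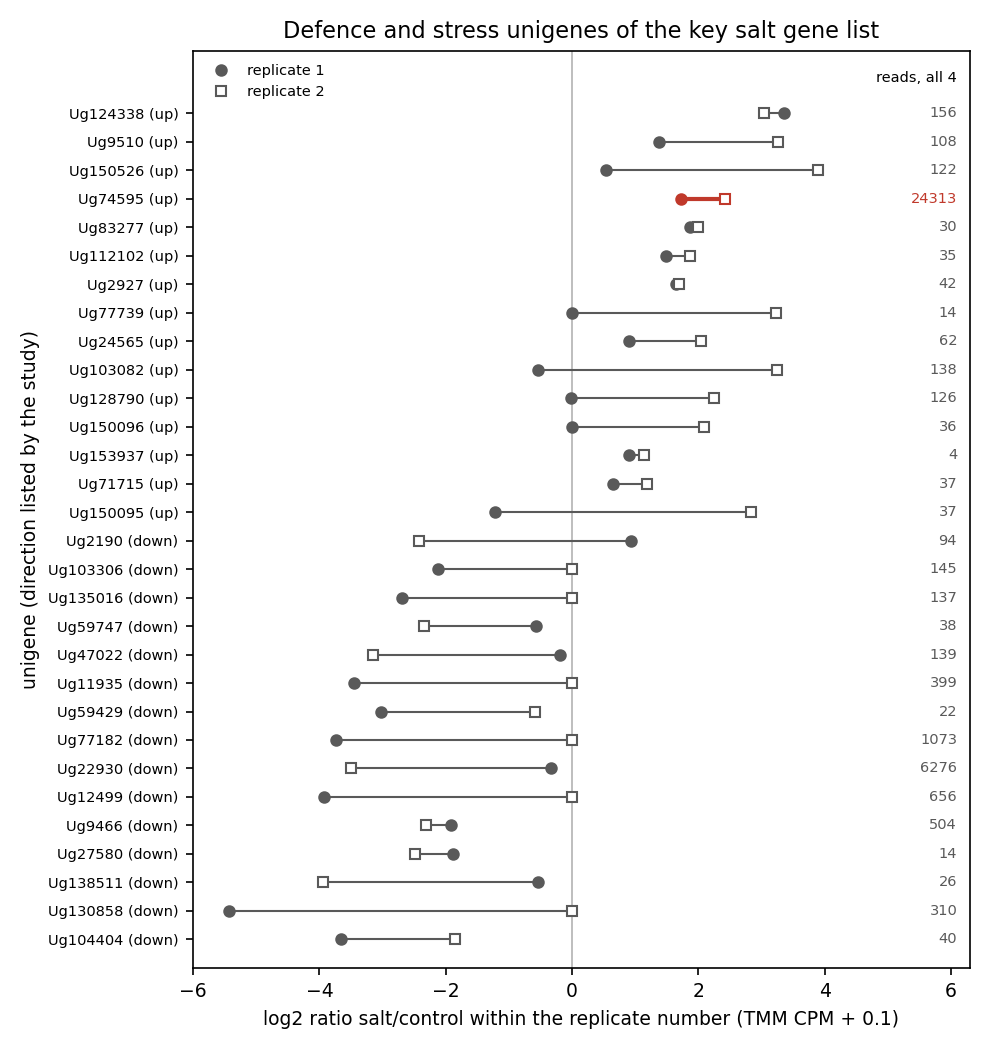
Log2 ratio of salt-treated over control TMM-scaled CPM (0.1 CPM added) within replicate 1 (filled circles) and replicate 2 (open squares) for the 30 unigenes that the study lists under defence and stress, with the listed direction in brackets and the reads in all 4 libraries at the right. Ug74595 (red) has ratios of 1.72 and 2.42 from 24313 reads, and a ratio of exactly 0 marks a replicate number without reads in both groups.

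On the lowered side, the largest mean log2 ratios were those of D-lactate dehydrogenase (Ug104404), Polyubiquitin 4 (Ug130858) and Protein HOTHEAD (Ug138511). D-lactate dehydrogenase had 0 and 2 reads in salt-treated roots, against 26 and 12 in control roots. Polyubiquitin 4 had 5 and 0 reads in salt-treated roots, against 305 and 0 in control roots. Protein HOTHEAD had 0 and 0 reads in salt-treated roots, against 1 and 25 in control roots. All 3 rested on few reads or on 1 library.

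Ug74595 is also among the 13 key salt genes that matched more than 1 of the published root data sets on salt used for comparison. It had the most reads of the 13, whose median was 108. Next by reads came Ug22930, described above, and a Trihelix transcription factor (Ug113286, GT-3b), with 52 and 858 reads in salt-treated roots, against 30 and 200 in control roots. The groups separated with salt higher for 5 of the 13, all among the 10 listed as raised, against 8.12% of all tested unigenes. Only 6 of the 13 had enough reads in at least 2 libraries to be tested, and 2 of these 6 separated in this way, Ug74595 included. The study took the listed directions from the same libraries, so these counts are not independent evidence. By the mean log2 ratio Ug74595 was number 4 of the 13, and by the smaller of both ratios number 2.

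Likeness to the pattern of Ug74595 was measured as the Euclidean distance between log2 levels over the 4 libraries, each centred on its own mean. Among the other 91 unigenes of the study's list of key salt genes, the nearest were a probable eukaryotic translation initiation factor 5-2 (Ug19670), Dynamin-2A (Ug26019) and Hexokinase-1 (Ug152117), at distances of 0.49, 0.70 and 0.83. The initiation factor had 10 and 10 reads in salt-treated roots, against 2 and 0 in control roots. Dynamin-2A, a GTPase of vesicle scission, had 6 and 6 reads in salt-treated roots, against 2 and 0 in control roots. Hexokinase-1, which phosphorylates glucose, had 10 and 9 reads in salt-treated roots, against 4 and 2 in control roots. These profiles therefore rest on few reads. Of all tested unigenes, 236 lay within a distance of 1, and the nearest were Ug90221 and Ug48073 at 0.26 and 0.27, which the study's lists do not name. Both also rest on few reads. Ug90221 had 17 and 14 reads in salt-treated roots, against 3 and 2 in control roots. Ug48073 had 14 and 16 reads in salt-treated roots, against 4 and 2 in control roots. Of the 979 unigenes of similar abundance, 0 lay within a distance of 1, and the nearest was at 1.02.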

How the data were processed

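mRNA libraries of salt-treated and control roots were sequenced on an Illumina HiSeq and assembled by the authors with Trinity. The authors deposited raw read counts per unigene and RPKM, which their methods obtain with SOAP, with the unigene length. RPKM recomputed from the deposited counts and lengths differed by at most 5e-05. The counts, 17.1 to 22.4 M reads per library, went into edgeR 4.0.16 under R 4.3.3. Low counts were removed by filterByExpr. It asked for about 10 reads, scaled to the size of the library, in at least 2 libraries, and a total of 15. Libraries were scaled by TMM. glmQLFit and glmQLFTest were run with p-values adjusted by Benjamini-Hochberg over 62900 unigenes. Salt was fitted with condition alone, and the replicate number with condition. Standard errors were taken from the F statistic. DESeq2 1.42.0, limma 3.58.1 on log2 RPKM, other size factors, filters, pseudocounts and abundance windows, and leaving out each library were the alternatives. The edgeR fits were also run on simulated counts that varied less between libraries than these data, so that run checks the code only. pandas 2.3.3 and scipy 1.17.1 on Python 3.11.15 gave the ranks, exact intervals and list counts. The unigene, the lists and the tests were chosen with earlier results of these data known. Named unigenes were those nearest in profile, those with the most reads and, in the defence list, those with the 3 largest mean ratios of each direction. No sequence was used.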

Additional observations from a re-analysis of the deposited data

How the results depend on the processing

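Of the alternatives, none turned the direction of the salt-over-control difference of Ug74595. None could have, so this is no support for the difference. The lower salt-treated library lay 3.46-fold above the higher control library in RPKM, and the size factors were 0.97 to 1.05. The same contrast also chose Ug74595. Its fitted log2 fold change was 2.07 with the replicate block in edgeR and between 1.85 and 2.27 with each library left out. In each of the 7 other settings of abundance window, pseudocount and scaling, 0 unigenes of similar abundance exceeded it in the smaller of both ratios, while the share that exceeded it in the mean ratio was between 0.470% and 1.09%. The replicate numbers share no stated origin, and over the tested unigenes the deviations of libraries with the same number correlated with r = 0.69. With the replicate block, edgeR called 0 unigenes between the conditions, with 2156 at an unadjusted p under 0.05, and DESeq2 called 14 as higher and 153 as lower. These counts are not read for Ug74595, as it was chosen by this contrast. Without the block DESeq2 called 1 and 1, and edgeR without control replicate 2 called 2 as lower (0 to 2 over the libraries left out, 0 as higher). Calls between replicate numbers were 5629 higher and 6795 lower without a filter, 2104 higher with limma and 0.1 added to the RPKM, and 1823 and 1657 with 1 added, and the cause was not tested. Their fit with a library left out has no residual degrees of freedom, so that only the log2 difference of Ug74595 is given. It lay between -0.24, in the control libraries alone, and 0.47, in the salt-treated libraries alone. With 2979 unigenes of similar abundance in place of 979, 26.1% had a smaller difference between the control replicates. With only tested unigenes, the defence and stress counts were 4 of 7 raised and 1 of 10 lowered. Counting error of Ug74595 was smaller than the difference between the replicates of either group.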
